A study of Mus musculus with 6 samples.

Results

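The 10 genes described here encode the J chain and proteins that fold, retain or assemble antibody in the endoplasmic reticulum (ER) of plasma cells: Jchain, Mzb1, Erp44, Fkbp11, Ppib, Hspa5, Hsp90b1, Dnajb11, Dnajc3 and Sdf2l1. They were chosen by name, for their known roles, among 24346 gene symbols, with earlier results of these data known. All 10 were listed in every library and tested. RNA was sequenced from plasma cells sorted from mouse spleen as IgM cells (3 libraries) or IgG1 cells (3 libraries). Donor B1-8germ B cells, whose knocked-in heavy chain recognises the hapten NP and which carry a congenic mark, were placed in wild-type C57BL/6J mice. The hosts received NP-CGG, a carrier protein coupled to NP, in alum, and donor-derived cells were sorted 7 days later. The groups therefore share the knocked-in receptor, the transfer and the immunisation, and differ by the isotype used in the sort. The sources used here give neither the animals' age nor the number of animals or cells behind a library. The p-values therefore reflect only how far these libraries scatter, and that scatter may be technical. Isotype was taken from the labels and was not checked, because Ighm and Ighg1 were not analysed here.

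A plasma cell makes heavy and light chains on ER-bound ribosomes and folds them in the ER lumen. BiP, the HSP70 of that compartment (Hspa5), holds a heavy chain until a light chain replaces it. Its J-domain partners and GRP94, the HSP90 of the ER (Hsp90b1), work on the same chains. IgM is then built into polymers closed by the J chain, and thiol-dependent retention keeps unfinished subunits from leaving. IgG1 is secreted as a monomer that needs no J chain.

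Promoter sequences are shown for the 4 BiP-system genes that carried a match to the ER stress response element, the site through which ATF6 and NF-Y are known to raise chaperone genes, and for Jchain, which carried none. The element (ERSE) was searched as CCAAT, then 9 bases of any kind, then CCACG. Its shorter form (ERSE-II) was searched as ATTGG, 1 base of any kind, then CCACG, and each motif on both strands. The windows run from 250 bases before to 50 bases after the start of transcription and come from RefSeq (GRCm38.p6), in which 9 of the 10 genes were matched. Capitals mark the fixed letters of an ERSE or ERSE-II match and, in Jchain, the match to ACGTG, the core bound by XBP1 and related factors, on the opposite strand.
Hspa5 promoter, chr2:34771840-34772139, plus strand: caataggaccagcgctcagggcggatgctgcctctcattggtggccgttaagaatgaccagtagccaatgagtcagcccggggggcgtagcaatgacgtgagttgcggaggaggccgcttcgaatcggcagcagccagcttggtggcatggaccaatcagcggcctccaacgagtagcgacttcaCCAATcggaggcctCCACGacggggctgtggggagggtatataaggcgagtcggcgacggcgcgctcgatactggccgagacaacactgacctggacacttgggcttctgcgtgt
Hsp90b1 promoter, chr10:86705395-86705694, minus strand: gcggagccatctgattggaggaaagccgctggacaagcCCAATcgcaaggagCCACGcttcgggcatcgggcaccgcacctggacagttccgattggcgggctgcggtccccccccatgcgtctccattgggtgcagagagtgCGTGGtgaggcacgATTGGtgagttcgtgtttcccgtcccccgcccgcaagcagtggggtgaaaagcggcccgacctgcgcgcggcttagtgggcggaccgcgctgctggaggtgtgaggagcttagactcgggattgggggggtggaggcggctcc
Dnajc3 promoter, chr14:118937682-118937981, plus strand: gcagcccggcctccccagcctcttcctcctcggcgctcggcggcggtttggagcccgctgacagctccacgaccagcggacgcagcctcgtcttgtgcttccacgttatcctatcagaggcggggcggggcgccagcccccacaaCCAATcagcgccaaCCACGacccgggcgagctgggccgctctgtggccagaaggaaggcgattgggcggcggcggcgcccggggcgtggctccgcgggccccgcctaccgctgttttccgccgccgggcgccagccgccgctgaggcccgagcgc
Dnajb11 promoter, chr16:22857595-22857894, plus strand: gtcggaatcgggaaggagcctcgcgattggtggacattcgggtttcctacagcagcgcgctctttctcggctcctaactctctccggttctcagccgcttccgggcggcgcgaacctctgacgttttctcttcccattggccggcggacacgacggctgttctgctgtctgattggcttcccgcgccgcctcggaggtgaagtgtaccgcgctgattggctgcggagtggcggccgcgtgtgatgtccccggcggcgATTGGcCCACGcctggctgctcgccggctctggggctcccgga
Jchain promoter, chr5:88527848-88528147, minus strand: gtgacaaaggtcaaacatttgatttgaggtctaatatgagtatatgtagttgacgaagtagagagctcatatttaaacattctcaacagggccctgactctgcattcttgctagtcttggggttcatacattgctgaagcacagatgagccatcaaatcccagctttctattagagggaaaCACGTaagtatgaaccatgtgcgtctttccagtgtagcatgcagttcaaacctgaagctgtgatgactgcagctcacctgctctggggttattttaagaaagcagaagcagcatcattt

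ERSE was found in Hspa5, Hsp90b1 and Dnajc3, or 3 of the 9 genes with a window, and in 39 of 32851 RefSeq windows of the same length (0.119%). Hsp90b1 held 2 of these matches, 1 on each strand. ERSE-II was found in Dnajb11, in which it lies just after the start, and in 12 of all windows (0.0365%). The 8-letter element TGACGTGG (UPRE) was found in 0 of the 9 genes and in 0.676% of windows. The short core ACGTG, which the longer UPRE contains, was found in 6 of the 9 genes (Jchain, Fkbp11, Erp44, Ppib, Hspa5 and Dnajc3) and in 19.6% of windows. The letters CCAAT, which both ERSE forms contain on one strand or the other, were found in 8 of the 9 and in 37.4% of windows. Sdf2l1 held 4 CCAAT matches with neither ERSE form. A match is only a run of letters in this window and says nothing about binding.

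**Figure D1:**
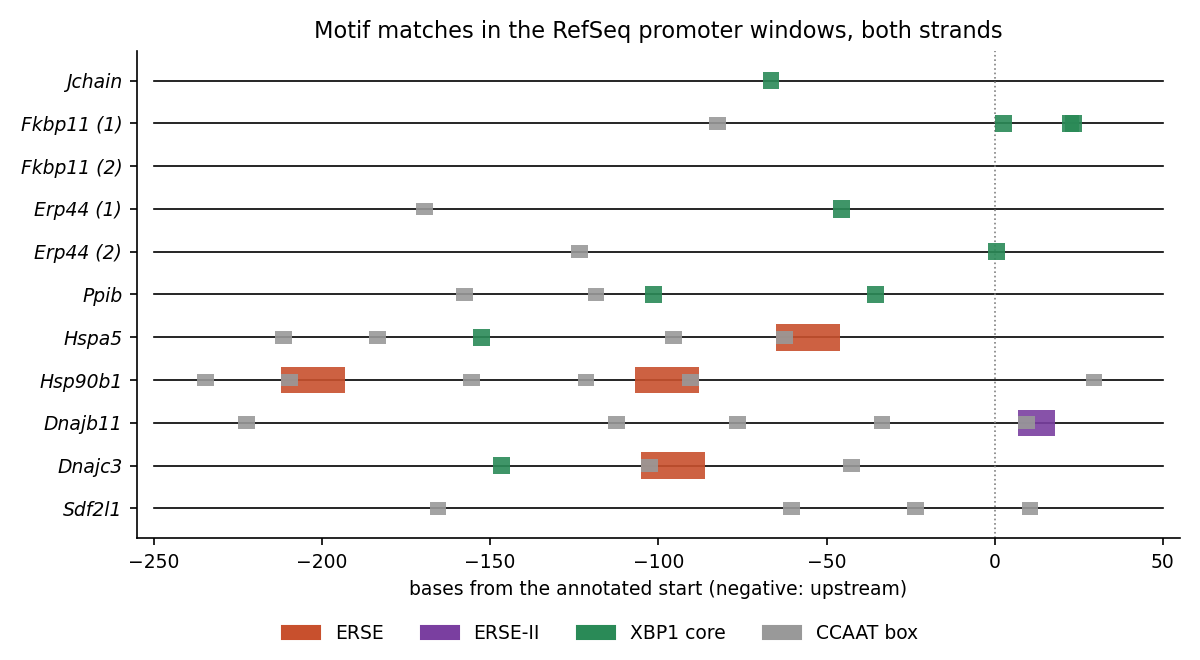
Position of motif matches in the promoter windows of 9 genes, in bases from the annotated start (negative is upstream); boxes mark matches on either strand, and Fkbp11 and Erp44 have 2 windows each. ERSE boxes sit in Hspa5, Hsp90b1 and Dnajc3, the ERSE-II box in Dnajb11, and the Jchain line holds a single ACGTG match.

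Values are FPKM (fragments per kilobase of transcript, scaled to library size), which are per length. Levels of different genes can be compared only roughly, given the length trend described below. Fold changes are IgG1 minus IgM on the log2(FPKM + 1) scale, from limma fitted to 9087 genes, with a standard error (SE) and a p adjusted over all of them. The threshold was 0.05. Estimated depth was 14800000 to 17800000 fragments a library, which puts at least 10200 fragments behind every value of the 10 genes. Counting alone then gives an error of at most 0.99% if fragments are independent, and scatter from library preparation is not included. The libraries also differed in how values followed transcript length. The Spearman correlation of a library's deviations from the gene means with length was 0.15 to 0.30 in IgM and -0.15 to -0.24 in IgG1 libraries. Each fold change is therefore also given with every library's length and GC trend removed, called the corrected value. All 7 plasma cell markers were above 1 FPKM in every library, with a summed level of 6763 to 7628 in IgM and 7215 to 7774 in IgG1. Most of that sum was Xbp1, the transcription factor gene of the secretory program, which was higher in every IgG1 library (mean 5580 in IgM and 6636 in IgG1). The groups overlapped for Sdc1, and the other 5 markers were lower in every IgG1 library than in every IgM library. Of all tested genes, 13.5% were lower in this way and 13.7% higher. Their means in IgM and IgG1 were 623 and 81.9 for Tnfrsf17, the receptor BCMA, 44.3 and 21.3 for Prdm1, 92.3 and 55.3 for Irf4, 170 and 113 for Slamf7, and 62.1 and 34.3 for Cd28. Granulocyte markers (4 of 4 in the files) were at 0 in every library. T cell markers summed to 2.15 to 4.73 and 1.13 to 7.29, and erythroid markers to 0.618 to 2.56 and 0.914 to 2.80. Of the follicular B cell markers, Ms4a1 was at 61.1, 70.5 and 64.6 FPKM in IgM and at 45.9, 66.4 and 59.7 in IgG1 libraries, which overlap. Pax5 was at 0 throughout, and Cd22, Fcer2a, Cr2, Bach2 and Ciita reached at most 3.25 FPKM in any library. The 6 macrophage markers summed to 64.2 to 69.2 in IgM and 34.5 to 45.7 in IgG1. Cd68 made up most of that, at a mean of 57.8 and 38.3. Lyz2 was at 4.77 to 8.44 in IgM libraries and at 5.07, 0.16 and 0.309 in IgG1 libraries 1 to 3. Their part in the results was not tested.

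In IgG1 cells 3 of the 10 genes fell, namely Jchain, Dnajb11 and Dnajc3, and 0 rose (limma). Of all genes tested 1.76% were called lower and 4.26% higher, or 6.02% in either direction. At an unadjusted p under 0.05 the counts were 6 lower and 0 higher, against 10.2% of all tested genes lower and 11.9% higher. In the same libraries 5 of the 7 plasma cell markers did not overlap and were lower in IgG1, and 1 (Xbp1) did not overlap and was higher. The part of these markers in the counts was not tested. For 6 of the 10 genes (these 3, Fkbp11, Erp44 and Hspa5) every IgG1 library lay below every IgM library, against 13.5% of all tested genes. For 0 of the 10 did every IgG1 library lie above, against 13.7%. Their median fold change was -0.28, against -0.05 over all tested genes. In bulk RNA, fewer cells that express a gene and less RNA of it per cell cannot be told apart. With the corrected values the genes that fell were Jchain, Dnajb11 and Fkbp11, again 3 lower and 0 higher, where 0.958% of all genes were called lower and 1.93% higher. Without IgM library 1, IgG1 library 2 or IgG1 library 3 the count was 1 (Jchain), without IgM library 3 it was 2, and without IgG1 library 1 it was 5, with Hspa5 and Hsp90b1 added. It was 8 after quantile normalization, with Jchain not among them, 8 after rescaling without Jchain, and 0 when genes of low value were kept in or the variance was fitted without an intensity trend.

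**Figure D2:**
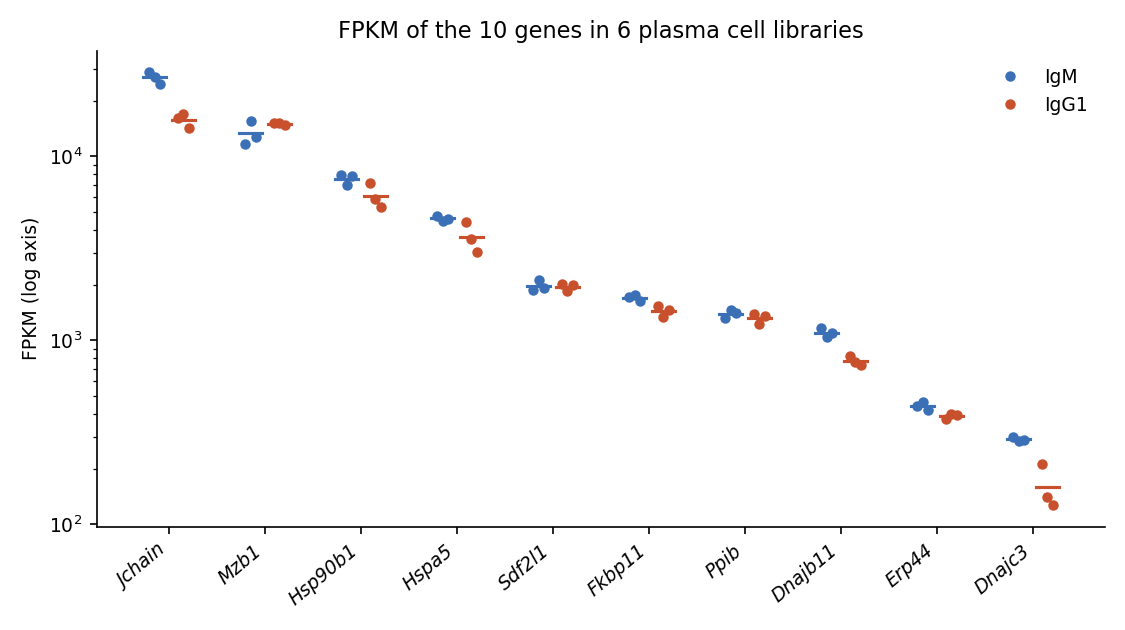
FPKM (log axis) of the 10 genes in the 3 IgM (blue) and 3 IgG1 (orange) libraries, points for libraries 1 to 3 from left to right and a bar for the mean, ordered by the IgM mean. The Jchain, Dnajb11 and Dnajc3 points separate the groups, while those of Sdf2l1, Ppib, Mzb1 and Hsp90b1 overlap.

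Jchain encodes the small protein that bridges IgM or IgA subunits in a polymer. Its FPKM in IgM libraries 1 to 3 was 28583, 27109 and 24812, against 16082, 16961.5 and 14208 in IgG1 libraries 1 to 3. The groups did not overlap, and the highest IgG1 library was well below the lowest IgM library. Jchain was the most abundant of all listed genes in each IgM library and ranked between 1 and 4 in IgG1 libraries. These ranks hold only among the 24346 listed symbols, and immunoglobulin chain genes were not analysed here. IgG1 was 1.70-fold lower, with a mean of 15751 ± 1406 where IgM had 26835 ± 1900 (SD, n = 3). The log2 fold change was -0.77 (SE 0.10, adjusted p = 0.00389). The corrected value was -0.70 (adjusted p = 0.000877). Leaving out any 1 library gave -0.83 to -0.70 with adjusted p up to 0.0296. The call was missed under quantile normalization (-0.46, adjusted p = 0.0998), without the filter on low values (adjusted p = 0.34) and without the intensity trend (adjusted p = 0.139). The IgG1 mean of Jchain was 1.05 times that of Mzb1, the next most abundant of the 10. Jchain lies on chromosome 5 from 88519809 to 88527891 (GRCm38, minus strand; GENCODE, as for the other positions of genes), and its annotated transcript has 1393 nt.

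Mzb1 encodes an ER protein, also called pERp1, that is known to aid IgM assembly together with GRP94. IgM libraries had 11685, 15483 and 12789 FPKM and IgG1 libraries 15162, 15198 and 14828. The IgM libraries spread more widely than the IgG1 libraries (coefficient of variation 14.7% against 1.35%), and IgM library 2 lay above every IgG1 library. The fold change was 0.19 with a 95% interval of -0.05 to 0.43 (SE 0.11, adjusted p = 0.356), and the corrected value was -0.06 (-0.22 to 0.11). Mzb1 stayed at rank 2 in each IgM and rank 3 in each IgG1 library. Its exons overlap those of Spata24, a gene at a mean of 9.02 FPKM in IgM and 9.01 in IgG1 cells, and whether counting used the strand is not stated in the sources used here.

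Erp44 (chromosome 4, 48193323 to 48279558, minus strand) encodes a thioredoxin-family protein that captures unassembled IgM subunits by their free cysteines and returns them to the ER. IgM libraries had 440, 461 and 420 FPKM and IgG1 libraries 374, 398 and 394. Every IgG1 library was lower than every IgM library, by a small margin. The fold change of -0.18 (95% interval -0.40 to 0.05, SE 0.10, adjusted p = 0.342) missed the threshold, and the corrected value was on the other side of 0, at 0.07 (-0.18 to 0.32).

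Fkbp11 and Ppib encode prolyl isomerases of the ER, of the FKBP and cyclophilin families, which turn proline bonds during folding. Fkbp11 was at 1720, 1758 and 1647 FPKM in IgM and at 1536, 1345 and 1458 in IgG1 libraries, with no overlap. Its fold change was -0.24 (95% interval -0.45 to -0.03, SE 0.10, adjusted p = 0.161). With the length and GC trend removed it was -0.56 (SE 0.08, adjusted p = 0.00633), the second most negative of the 10 after Jchain. Fkbp11 (chromosome 15, 98724366 to 98728198, minus strand) has the shortest annotated transcript of the 10, at 734 nt. Ppib was at 1325, 1472 and 1401 in IgM and at 1388, 1235 and 1359 in IgG1 libraries, and the groups overlapped. Its fold change was -0.08 (95% interval -0.29 to 0.14, adjusted p = 0.708) and its corrected value -0.30 (-0.46 to -0.13, adjusted p = 0.0593). Ppib (chromosome 9, 66060222 to 66066623, plus strand) shares exonic sequence with Snx22, which was at 155 and 151 FPKM on average.

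Hspa5, the gene of BiP (chromosome 2, 34771970 to 34777547, plus strand), was at 4760, 4461 and 4592 FPKM in IgM and at 4419, 3562 and 3014 in IgG1 libraries. IgG1 library 1 lay just under the lowest IgM library and IgG1 library 3 far below it, so the coefficient of variation was 19.3% in IgG1 against 3.26% in IgM. The fold change was -0.35 (95% interval -0.62 to -0.07, SE 0.13, adjusted p = 0.135), and the corrected value was -0.11 (-0.30 to 0.08). Hsp90b1, the gene of GRP94 (chromosome 10, 86690209 to 86705509, minus strand), had a similar profile. It was at 7949, 6943 and 7784 in IgM and at 7152, 5859 and 5313 in IgG1 libraries, with IgG1 library 1 above IgM library 2. Its fold change was -0.32 (95% interval -0.57 to -0.06, SE 0.12, adjusted p = 0.139) and its corrected value -0.07 (-0.23 to 0.09). Without IgG1 library 1 both passed the threshold, at -0.49 (adjusted p = 0.034) and -0.44 (adjusted p = 0.0474).

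Dnajb11 (chromosome 16, 22857845 to 22879634, plus strand) encodes a J-domain cochaperone that binds unfolded chains and hands them to BiP. IgM libraries had 1163, 1043 and 1095 FPKM and IgG1 libraries 818, 768 and 734. The groups stood clearly apart, with a similar spread in each. IgG1 was 1.42-fold lower, with means of 773 ± 42.1 and, in IgM, 1100.3 ± 60.5. The log2 change was -0.51 (SE 0.10, adjusted p = 0.0134). The corrected value was close to it, at -0.45 (adjusted p = 0.0156). The call was missed without IgM library 1 or 3 or IgG1 library 2 or 3, with a largest adjusted p of 0.0742 and changes of -0.55 to -0.47.

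Dnajc3 (chromosome 14, 118937976 to 118981697, plus strand) encodes a tetratricopeptide J-domain cochaperone of BiP, first known as an inhibitor of eIF2alpha kinases. It was at 298, 284 and 288 FPKM in IgM and at 212, 142 and 128 in IgG1 libraries. The IgM libraries were nearly alike (coefficient of variation 2.51%), and IgG1 library 1 stood between them and the other IgG1 libraries. IgG1 was 1.81-fold lower, with means of 161 ± 45.2 and, in IgM, 289.8 ± 7.28. The log2 change of -0.88 (SE 0.17, adjusted p = 0.0133) was the largest of the 10. Its annotated transcript of 5141 nt is the longest of the 10. The corrected value was -0.47 (95% interval -0.77 to -0.18, adjusted p = 0.0876), so that the call ended under the correction. It was also missed without IgM library 1, IgG1 library 2 or IgG1 library 3, with adjusted p up to 0.0667.

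Sdf2l1 (chromosome 16, 17130138 to 17132383, minus strand) encodes a protein that forms a complex with the Dnajb11 product and keeps chains from aggregating during the BiP cycle. It was at 1886, 2138 and 1929 FPKM in IgM and at 2033, 1861 and 1993 in IgG1 libraries, and the groups overlapped. The fold change was -0.01 (95% interval -0.22 to 0.19, adjusted p = 0.946) and the corrected value -0.25 (-0.41 to -0.09, adjusted p = 0.0885).

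**Figure D3:**
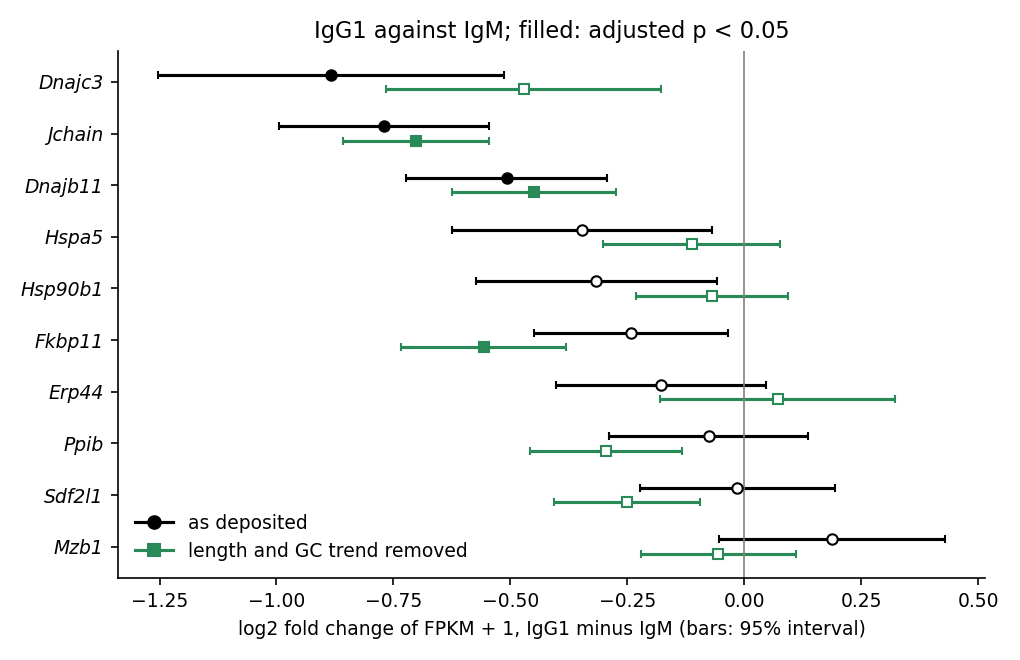
Log2 fold change of FPKM + 1 (IgG1 minus IgM) of each gene with its 95% interval, from the deposited values (black circles) and after removal of each library's length and GC trend (green squares), with filled symbols for adjusted p under 0.05. Jchain and Dnajb11 are filled in both, Dnajc3 only as deposited (-0.88 and -0.47) and Fkbp11 only when corrected (-0.24 and -0.56).

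Fold changes over all tested genes ran with transcript length. When these genes were cut into 10 equal bins by length, the median fold change went from 0.34 in the shortest bin to -0.35 in the longest. Each of the 10 genes lay below the median of its own bin, a value that by definition splits the genes of a bin evenly. The difference was -0.86 for Jchain, -0.58 for Fkbp11, -0.53 for Dnajc3, -0.51 for Dnajb11 and -0.42 for Ppib, and between -0.10 (Erp44) and -0.24 (Hsp90b1) for the others. Mzb1, the gene with the higher IgG1 mean, differed from its bin by -0.15. As deposited 9 of the 10 were negative, as were 4876 of all 9087 tested genes. After the correction 9 of the 10 were negative and Erp44 was positive, and their median was -0.27 against 0.01 over all genes.

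**Figure D4:**
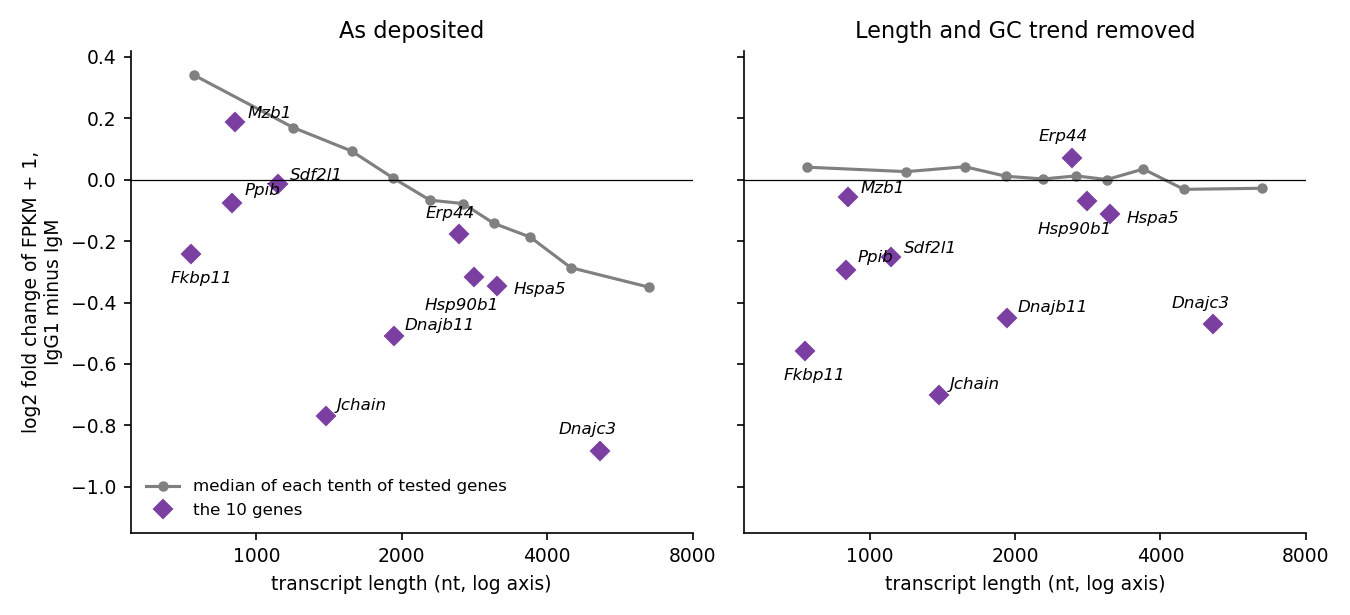
Log2 fold change (IgG1 minus IgM) against transcript length (log axis) as deposited and after the length and GC correction; diamonds are the 10 genes and the grey line joins the medians of 10 equal bins of all tested genes with a known length. On the left the line runs from 0.34 to -0.35 and Jchain (-0.77) and Dnajc3 (-0.88) are the lowest diamonds; on the right the line is near 0, Erp44 is at 0.07 and Jchain at -0.70.

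The order of mean FPKM, not corrected for the length trend, was the same in both groups: Jchain, Mzb1, Hsp90b1, Hspa5, Sdf2l1, Fkbp11, Ppib, Dnajb11, Erp44 and Dnajc3. In IgM cells no neighbours in that order overlapped between libraries. In IgG1 cells Jchain overlapped with Mzb1 and Fkbp11 with Ppib, while the other neighbours did not overlap. The 10 genes together made up 7.75 ± 0.377% of summed FPKM in IgM and 5.30 ± 0.506% in IgG1 libraries (two-sided exact permutation p = 0.1, the smallest that 3 against 3 can give). Without Jchain the other 9 made up 4.24 ± 0.0316% and 3.51 ± 0.339% (exact permutation p = 0.1). Their FPKM sum was 32405 ± 1464 and 30895 ± 1990 (exact permutation p = 0.4), so the lower share went with a higher total in IgG1 libraries, at 855123 to 914019 FPKM against 730695 to 806599.

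Ratios of a pair of genes within a library do not depend on how libraries were scaled, but a trend with transcript length can move them. The FPKM of Jchain per FPKM of Mzb1 was 2.45, 1.75 and 1.94 in the IgM libraries. It was 1.06, 1.12 and 0.958 in the IgG1 libraries, a 1.94-fold difference. Jchain was also lower relative to Hspa5, at 6.00, 6.08 and 5.40 against 3.64, 4.76 and 4.71 (1.34-fold), and relative to Erp44, at 58.8 to 65.0 against 36.0 to 43.0 (1.51-fold). None of these 3 ratios overlapped between groups, and with corrected values all stayed lower in IgG1, at log2 differences of -0.65 (Mzb1), -0.59 (Hspa5) and -0.77 (Erp44). The exact permutation p was 0.1 for each, the smallest possible, and 0.183 adjusted over the 11 ratios computed.

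Of the ratios within the BiP system none passed a test, since 0.1 is the smallest exact permutation p and 0.183 its adjusted value. Hsp90b1 per Hspa5 was 1.56 to 1.70 in IgM and 1.62 to 1.76 in IgG1 libraries, with overlap (exact permutation p = 0.6). Dnajc3 per Hspa5 was 0.0626 to 0.0636 in IgM libraries, a very narrow range, and 0.0480, 0.0398 and 0.0423 in IgG1 libraries. That is 1.46-fold lower, and 1.28-fold lower with corrected values, without overlap in either (exact permutation p = 0.1). Dnajb11 per Hspa5 overlapped, at 0.234 to 0.244 and 0.185 to 0.244 (exact permutation p = 0.3). With corrected values it did not overlap and was 1.26-fold lower. Sdf2l1 RNA per Dnajb11 RNA, whose proteins are known to form a complex, was 1.62, 2.05 and 1.76 in the IgM libraries, against 2.49, 2.42 and 2.71 in the IgG1 libraries. It was 1.41-fold higher in IgG1, and 1.15-fold with corrected values, again without overlap (exact permutation p = 0.1). Fkbp11 per Ppib was 1.18 to 1.30 in IgM and 1.07 to 1.11 in IgG1 libraries, 1.12-fold lower without overlap (exact permutation p = 0.1). It was 1.20-fold lower with corrected values, again without overlap. Sdf2l1 per Hspa5 (0.396 to 0.479 and 0.460 to 0.661) and Ppib per Hspa5 (0.278 to 0.330 and 0.314 to 0.451) overlapped and were higher in IgG1 on average. With corrected values both were lower in IgG1. Sdf2l1 per Hspa5 then did not overlap (exact permutation p = 0.1), while Ppib per Hspa5 still did (exact permutation p = 0.2). Mzb1 per Hsp90b1 (1.47 to 2.23 and 2.12 to 2.79) overlapped and was 1.42-fold higher on average, and 1.01-fold with corrected values.

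**Figure D5:**
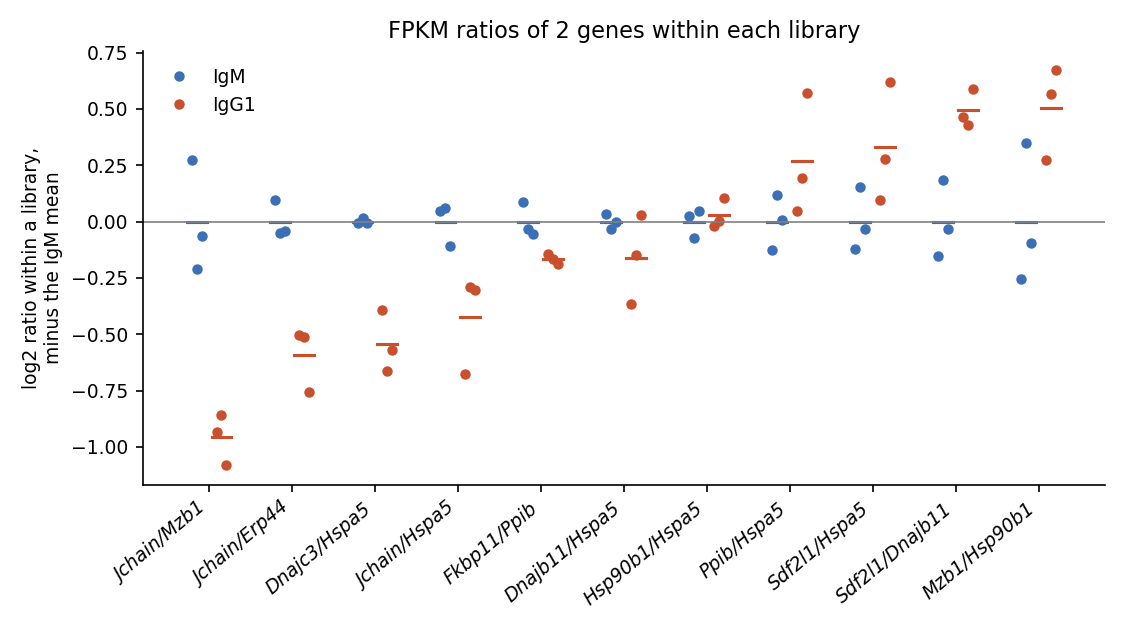
Log2 ratio of the FPKM of 2 genes in each library, minus the mean of the IgM libraries, for 11 ratios; points are libraries 1 to 3 from left to right (IgM blue, IgG1 orange) and bars are means. Jchain per Mzb1, per Erp44 and per Hspa5, Dnajc3 per Hspa5 and Fkbp11 per Ppib lie lower in every IgG1 library, Sdf2l1 per Dnajb11 lies higher, and Hsp90b1 per Hspa5 overlaps.

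Across the 6 libraries, in values not corrected for the length trend, Hspa5 followed Hsp90b1 and Dnajc3 (Pearson r 0.98 and 0.95 of log2 values). Jchain followed Dnajb11 (0.97), and Sdf2l1 followed Ppib (0.86) but not Hspa5 (0.10). Mzb1 ran against Jchain (-0.60). These are descriptions over 6 points that share the group difference, each library's composition and its length trend. No correlation was computed with corrected values, which could change its size or sign. The fold changes of Mzb1 and Sdf2l1 moved under the correction, from 0.19 to -0.06 and from -0.01 to -0.25. Among 6276 genes with a mean of at least 5 FPKM, the profile most like that of Jchain was that of Wbp1l (r 0.999, mean 28.1 in IgM and 19.5 in IgG1). It was followed by B3gnt9, a glycosyltransferase gene (29.6 and 15.1), Sept7, a septin of the cytoskeleton (102 and 44.3), and Ehd4, of the endocytic EHD family (59.7 and 21.5), each at r 0.99. Nearest to Hspa5 were Pithd1, Eif2b1, a subunit gene of the exchange factor eIF2B (55.3 and 47.0), Ppp1r7 and Ccdc55, all at r 0.99. Nearest to Mzb1 were the glycolytic gene Gpi1 (r 0.99, 113 and 124), Gpaa1, of the enzyme that attaches GPI anchors (0.98, 90.3 and 121), Sergef (0.98) and Btf3 (0.97).

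Other genes of ER protein folding and of antibody transport were taken as lists. They are to be read against the shares of all tested genes: 1.76% lower and 4.26% higher after adjustment, and 10.2% and 11.9% unadjusted. Of 11 BiP cochaperones and exchange factors, 0 passed limma's threshold in either direction (4 lower and 0 higher at an unadjusted p under 0.05). Their median fold change was -0.12, or -0.03 with corrected values. Sil1, an exchange factor that frees BiP of ADP, was at 250.05 ± 42.4 in IgM and 205 ± 1.66 in IgG1 (-0.27, adjusted p = 0.264). Dnajb9, another J-domain partner, was at 157 ± 8.03 and 151 ± 23.9 (-0.07, adjusted p = 0.817). Of 11 genes of other ER chaperones, disulfide isomerases and related proteins 3 fell and 0 rose (5 lower and 1 higher unadjusted). Their median was -0.06, or -0.14 with corrected values and 0.01 after median centring. Those that fell were the protein disulfide isomerase genes Txndc5 (1174 ± 74.6 against 4493 ± 258, -1.94, adjusted p = 1.23e-06), Pdia4 (2174 ± 388 against 3346 ± 127, -0.64, adjusted p = 0.0134) and Pdia3 (1101 ± 135 against 1516 ± 98.4, -0.47, adjusted p = 0.0322). With corrected values Txndc5 (-1.87) and Pdia4 (-0.46) passed and Pdia3 (-0.26, adjusted p = 0.11) did not.

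In the calnexin and calreticulin cycle, which folds glycoproteins by their glucose tags, 4 of 13 tested genes fell and 1 rose. The median was -0.28, or -0.15 with corrected values. At an unadjusted p under 0.05 in limma, 7 were lower and 2 higher. Mogs, the glucosidase that trims the first glucose, was the one that rose, at 117 ± 43.4 against 25.5 ± 11.9 (2.17, adjusted p = 0.00475). Canx, the gene of the membrane chaperone calnexin, fell (179 ± 7.61 against 259 ± 16.9, -0.52, adjusted p = 0.0234), as did Pdia3 and the mannosidase-family genes Edem3 (-0.86, adjusted p = 0.0332) and Edem1 (-0.40, adjusted p = 0.0265), whose products mark misfolded glycoproteins for degradation. With corrected values Canx was at -0.15, Edem3 at -0.66 and Edem1 at -0.01, and 0 of the 13 were lower and 2 higher. Of 11 genes of thiol retention and polymer assembly 1 fell and 0 rose (4 lower and 0 higher unadjusted). The one that fell was the oxidase gene Ero1lb (41.0 ± 6.28 against 75.9 ± 12.7, -0.87, adjusted p = 0.0204). Its corrected value of -0.59 missed the threshold (adjusted p = 0.0813). Of 6 other ER prolyl isomerase genes only Fkbp2 passed the filter on low values, at 1689 ± 175 and 1614 ± 16.6 (-0.06, adjusted p = 0.781), and its corrected value was -0.46 (adjusted p = 0.0156). Of 5 symbols listed for receptors and carriers of polymeric antibody (Pigr, Fcamr, Cd5l, Fcmr and its older name Faim3) only Fcmr, the receptor for the IgM Fc part, passed the filter. It was at 8.09, 20.6 and 17.1 FPKM in IgM and 6.93, 3.58 and 0.636 in IgG1 libraries, which do not overlap, and it missed the threshold (-1.97, SE 0.55, adjusted p = 0.0591). Txndc5 and Mogs kept an adjusted p under 0.05 when any 1 library was left out, with largest values of 6.40e-05 and 0.0319. Pdia4, Pdia3, Canx, Edem1, Edem3 and Ero1lb did not, with largest values of 0.0618 to 0.189.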

How the data were processed

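RNA from 6 libraries of sorted mouse plasma cells was reverse transcribed with SMART-Seq HT and made into libraries with Nextera XT, per the labels' protocols. Cufflinks 2.2.1, Cuffdiff, TopHat2 2.1.1, Bowtie2 2.3.5.1 and build mm10 are named in the submitters' processing notes. How libraries were scaled to each other, and with which annotation, is not stated in the sources used here. Deposited values are FPKM, per the file headers, 1 for each symbol. They divide by length and depth, so a shift in library composition or in coverage of long transcripts moves them.

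Genes at 1 FPKM or more in at least 3 libraries were compared on log2(FPKM + 1) with limma 3.58.1 in R 4.3.3 (lmFit, eBayes with intensity trend) and Benjamini-Hochberg adjustment; intervals are 95%, unadjusted. Ratios and shares went through exact permutation tests, two-sided (scipy 1.17.1). The correction removed a loess fit (span 0.3) of each library's deviations on log2 transcript length and GC content from GENCODE M21 (8765 of 9087 genes). Fragments were estimated from the smallest step of FPKM times length, and are approximate. The procedure was tested on simulated data. The genes, lists and tests were chosen with earlier results of these data known. Named from the lists were up to 4 genes per direction past the threshold, or the 2 highest where none passed, and for Jchain, Mzb1 and Hspa5 the 4 genes of most similar profile. Alternatives were other pseudocounts (0.1 and 5), filters, scalings, variance models, a replicate block, the correction and leaving out each library. Ratios of corrected values were added after the data were seen. One marker of the B cell list, and the sum over that list, are not reported here.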

Additional observations from a re-analysis of the deposited data

How the results depend on the processing

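Over all genes 387 were called higher and 160 lower in IgG1. These counts were 5 and 9 without the filter, 3 and 5 without the intensity trend, 188 and 200 with quantile normalization, 177 and 393 with libraries rescaled to one sum that leaves out Jchain, and 169 and 84 with the length and GC correction. Higher calls made up 70.7% of calls as deposited. They made up 80.6% under median centring, 48.5% under quantile normalization and 31.1% under rescaling. Leaving out 1 library gave 78 to 394 higher and 30 to 251 lower. Of the 10 genes 0 passed without the filter or without the trend, where 9 were still negative, and the adjusted p of Jchain was 0.34 and 0.139. The count was 8 under quantile normalization and 8 under rescaling. Rescaling put the all-gene median at -0.25 (from -0.05) and that of the 10 genes at -0.51 (from -0.28). The count of the 10 genes called ranged from 1 to 5 when 1 library was left out. Jchain missed the threshold after quantile normalization (-0.46, adjusted p = 0.0998), which gives each library the same set of values by rank. Signs changed for Mzb1 (-0.18 with quantile normalization, -0.045 with rescaling, -0.056 corrected), Erp44 (0.071 corrected) and Sdf2l1 (0.0604 with median centring, and -0.0506 to 0.0401 when 1 library was left out). Of 180 alternative values of the 10 genes 144 kept direction and side of the threshold. Among ratios, Hsp90b1 per Hspa5 (log2 0.03) was at -0.0072 to 0.055 when 1 library was left out, and Sdf2l1 and Ppib per Hspa5 were at -0.14 and -0.18 with corrected values. Where no construction is named, the cause was not tested. With the replicate block, 432 genes were higher, 154 lower and 3 of the 10 genes were called; the labels do not say what a number shares, and deviations of same-numbered libraries correlated at 0.10, -0.03 and 0.00. Estimated counting error is at most 0.99% for the 10 genes if fragments are independent, and leaves out scatter from library preparation.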
